A study of Macaca mulatta with 12 samples.

Results

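The genes described here encode the intermediate filament proteins of nerve cells: the 3 neurofilament subunits NEFL (light), NEFM (medium) and NEFH (heavy), and the 2 related filament proteins INA (alpha-internexin) and PRPH (peripherin). Members were all probe sets, other than array controls, annotated with exactly 1 of these 5 symbols. There were 8 of them among 22215, for 5 of 11963 genes: 3 for NEFL, 2 for NEFH and 1 each for NEFM, INA and PRPH. Of the 8, 7 lay at or above the median of the mean log2 values over all probe sets and were tested among 11105. The PRPH probe set lay just below that median, at the 48.2nd percentile, and is described by its values.

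Neurofilaments are the main filaments of axons. NEFL forms the backbone on which NEFM and NEFH assemble, and the long phosphorylated tails of NEFM and NEFH reach out from the filament. The number of filaments and the spacing set by these tails are known to scale with axon calibre, and large projection neurons are rich in them. INA co-assembles with the 3 subunits in the central nervous system, while PRPH is best known from peripheral and cranial motor and sensory neurons. In the primate lateral geniculate nucleus, the thalamic relay for vision, antibodies to the tails have long been used to stain the large magnocellular neurons.

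The samples were total RNA of single geniculate layers from monocularly deprived rhesus macaques (Macaca mulatta), 12 in all, each on 1 array. Those labelled deprived (n = 6) were layers 2, 3 and 5 of the ipsilateral side and layers 1, 4 and 6 of the contralateral side. Those labelled non-deprived (n = 6) were the same layers of the opposite sides, from the same kind of animal and not from untreated controls. Layers 1 and 2 were taken as magnocellular (n = 4) and layers 3 to 6 as parvocellular (n = 8), which is textbook anatomy and not stated in the labels. The labels used here give no age, sex, duration or method of deprivation, and do not say how many animals were used or which samples shared one. The spread between samples may therefore be partly technical, and the p-values take no account of samples that shared an animal.

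Each value is a deposited, scaled intensity on a human expression array, so samples were compared probe set by probe set, and the intensity of one probe set says nothing of its level beside another. Macaque RNA can bind less well where its sequence differs from the human probe, and the part of this in the values was not tested. A tissue sample cannot tell fewer neurons apart from less filament RNA per neuron. Trimmed means had been equalised, at 1500.45 to 1500.6, but array medians ran from 411.5 (deprived layer 1) to 666.5 (deprived layer 2). Log2 median intensity had r = -0.772 with NEFH 204412_s_at and -0.501 to -0.039 with the other member probe sets. The deprived layer 2 array had the lowest mean correlation with the others, 0.868 against 0.897 to 0.934, and results are also given without it. The control probe sets for GAPDH, whose 3' to 5' signal ratio increases when RNA is degraded, gave ratios of 9.38 for deprived layer 2 and 11 for deprived layer 5, against 2.21 to 5.65 elsewhere. Nerve cell markers were measured in every sample: all 5 measured neuron markers (SNAP25, SYT1, STMN2, UCHL1 and THY1) and all 5 relay neuron markers, the thalamic transcription factor TCF7L2 among them, were above the filter, with no value at 0.

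Intensities of the neuronal filament genes reached 115109 for NEFM and 109475 for INA. The file holds no saturation calls, and whether the highest values were compressed at the top of the scale was not tested. PRPH had 211 to 1191 intensity units.

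**Figure D1:**
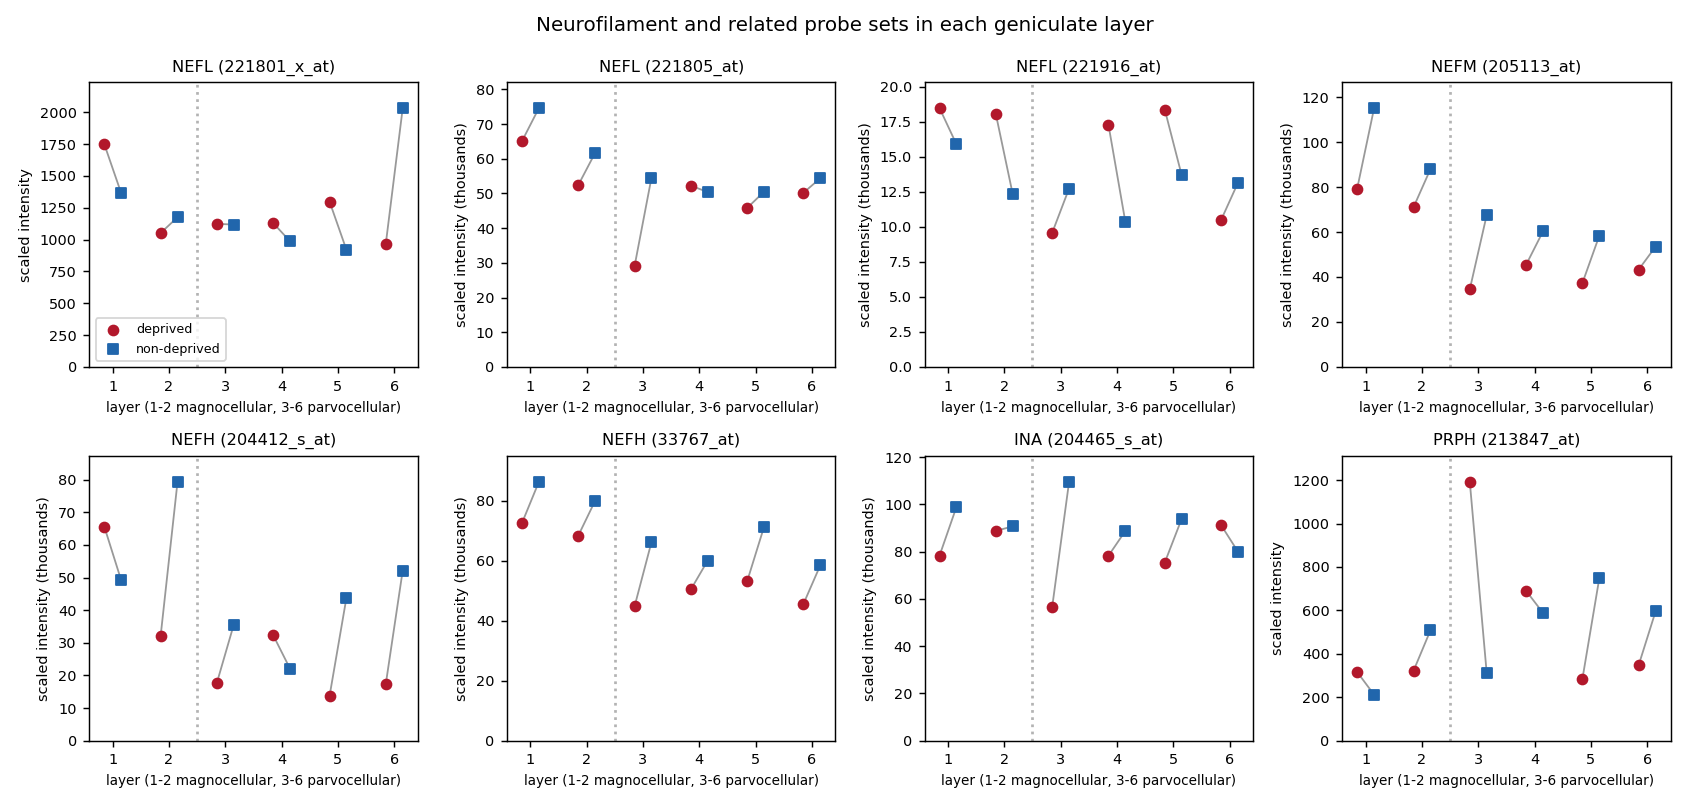
Scaled intensity of each of the 8 probe sets (vertical axes, linear and starting at 0) in layers 1 to 6 (horizontal axes), with 1 point per array: red circles are deprived and blue squares non-deprived samples, joined within a layer, and the dotted line separates magnocellular from parvocellular layers. NEFM and NEFH (33767_at) were lower in the deprived sample of all 6 layers, and every magnocellular NEFM value lay above every parvocellular one.

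NEFM, the medium subunit, separated the cell classes completely. In magnocellular layers its intensity was 79369 and 71021 in the deprived samples of layers 1 and 2, and 115109 and 87941 in the non-deprived ones. In parvocellular layers 3 to 6 it was 34514, 45434, 37282 and 43322 in deprived samples and 67501, 60270, 58340 and 53505 in non-deprived ones. The lowest magnocellular value lay above the highest parvocellular value although the first was deprived and the second was not. NEFM averaged 88360 ± 19120 in magnocellular layers (SD, n = 4) and 50020 ± 11710 in parvocellular layers (n = 8). The fit, which held deprivation and hemisphere as further terms, gave a 1.78-fold higher level (log2 change 0.83 ± 0.12, standard error; limma adjusted p = 0.00295). By p-value, NEFM ranked 11 of the 11105 probe sets tested. Without the deprived layer 2 array the change was 0.82 ± 0.14 (limma adjusted p = 0.0199).

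NEFH, the heavy subunit with the longest tail, was measured by 2 probe sets, and both were higher in magnocellular layers. Probe set 204412_s_at had 65573 and 32085 in the deprived and 49125 and 79294 in the non-deprived magnocellular samples. In parvocellular layers 3 to 6 it had 17770, 32292, 13627 and 17424 in deprived samples and 35599, 22006, 43720 and 52132 in non-deprived ones, so the classes overlapped. Its 2.02-fold difference passed the test (log2 change 1.01 ± 0.22, limma adjusted p = 0.0423). Of the 12 fits that each left out 1 array, however, 10 ended that call, with adjusted p of 0.0997 without the deprived layer 2 and up to 0.258 without the deprived layer 1.

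Probe set 33767_at of NEFH varied less within groups. It had 72490 and 68297 in deprived and 86214 and 79939 in non-deprived magnocellular samples, with a magnocellular mean of 76740 ± 7944 (SD, n = 4). Its parvocellular mean was 56200 ± 9505 (n = 8), and the highest parvocellular value, 71231 in the non-deprived layer 5, lay above the lowest magnocellular one. Within deprived samples alone, and within non-deprived samples alone, the classes did not overlap. The log2 change of 0.46 ± 0.11 missed the threshold (1.38-fold, limma adjusted p = 0.0641) and passed it after quantile normalization (0.48, adjusted p = 0.0448), a setting that ended the call of 204412_s_at (1.03, adjusted p = 0.0665).

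NEFL, the light subunit on which the others build, gave smaller class differences, and none of its 3 probe sets passed. The brightest, 221805_at, had 65064 and 52406 in deprived and 74583 and 61703 in non-deprived magnocellular samples. Parvocellular samples lay between 29026 and 54479, with the lowest in the deprived layer 3 and the other 7 between 45802 and 54479. Its log2 change was 0.40 ± 0.14 (limma adjusted p = 0.217), and the classes did not overlap within each deprivation group. In the deprived group that margin was narrow, with 52406 in magnocellular layer 2 against 52238 in parvocellular layer 4. Probe set 221916_at changed by 0.31 ± 0.19 and 221801_x_at by 0.18 ± 0.23 (limma adjusted p = 0.468 and 0.769). The suffix of 221801_x_at marks probes that can match unrelated transcripts, and its intensities were 920 to 2032.

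INA differed little between the classes. It averaged 89180 ± 8457 in magnocellular layers (SD, n = 4) and 84180 ± 15570 in parvocellular layers (n = 8), with a log2 change of 0.10 ± 0.12 and a 95% interval of -0.16 to 0.36 (limma adjusted p = 0.755). The upper end of that interval lies below the lower end of the interval for NEFM, 0.58. PRPH had 211 to 507 in magnocellular and 284 to 1191 in parvocellular samples, which overlapped. In a fit over all probe sets its log2 change was -0.73 ± 0.44 (limma adjusted p = 0.595).

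All 7 tested probe sets thus had positive class differences, with a median of 0.40, beside a median of -0.07 over all probe sets tested, of which 41.5% were positive. Of the 7, 2 passed the threshold of adjusted p under 0.05 as higher in magnocellular layers. Over all 11105 probe sets 0.72% passed in either direction, 0.297% as higher. Complete separation of the classes with magnocellular values on top was seen in 1 of the 7 (NEFM) and in 0.558% of all probe sets. Separation within each deprivation group was seen in 3 of the 7 (NEFM, NEFH 33767_at and, narrowly, NEFL 221805_at) and in 1.12% of all.

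**Figure D2:**
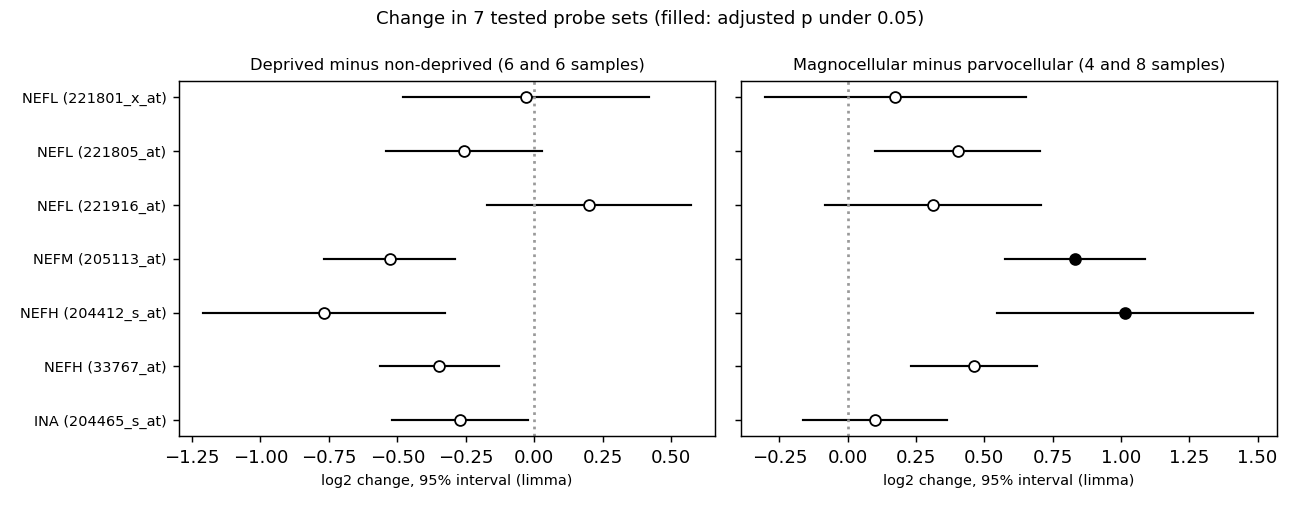
Log2 change with its 95% interval from limma for the 7 tested probe sets (rows), as deprived minus non-deprived (left panel, 6 and 6 samples) and magnocellular minus parvocellular (right panel, 4 and 8 samples); filled points passed adjusted p under 0.05. NEFM (0.83) and NEFH 204412_s_at (1.01) passed for cell class, and no member passed for deprivation.

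Other measures of the samples moved with cell class too. For ACTB the same control ratio was 29.8 to 62.9 in magnocellular and 17 to 43.9 in parvocellular samples. With that ratio as a covariate the NEFM change was 0.64 ± 0.20 and did not pass (limma adjusted p = 0.856), and that of NEFH 204412_s_at was 0.82 ± 0.37 (adjusted p = 1). With the GAPDH ratio instead, both passed (0.81, adjusted p = 0.0133, and 1.13, adjusted p = 0.0367). Of the 5 oligodendrocyte markers measured, 4 were negative and 2 fell: MAG (-1.26 ± 0.23, limma adjusted p = 0.018) and MBP (-0.64 ± 0.13, adjusted p = 0.0334), both proteins of myelin. MAG passed in 17 and MBP in 8 of 27 alternatives. The list's summed intensity was 56188 to 81508 in magnocellular and 81382 to 141953 in parvocellular samples, and none of the 5 was at 0. The 5 neuron markers had a median class change of 0.01, and their summed intensity was 276722 to 343114 in magnocellular and 254428 to 356898 in parvocellular samples. Relative to the mean of these 5 markers on each array, NEFM was again higher in magnocellular layers (0.86 ± 0.13, adjusted p = 0.00509). Of the 5 relay neuron markers, each at its brightest probe set, 2 were higher and 3 lower in magnocellular layers. Their median was -0.05, and none passed. Unadjusted, 1 had p under 0.05 by limma as higher and 2 as lower. The share of all probe sets at that level is not given here, so this count is only a description. RORA, a nuclear receptor of thalamic neurons, had -0.85 ± 0.23 and SLC17A7, a vesicular glutamate transporter, -1.19 ± 0.45 (limma adjusted p = 0.118 and 0.249). The relay markers' summed intensity was 105039 to 116137 in magnocellular and 99248 to 113218 in parvocellular samples. Of the 4 astrocyte markers tested, 2 were higher and 2 lower in magnocellular layers, and none passed. The 2 of smallest p were SLC1A3, a glutamate transporter, and ALDH1L1, both higher. They had 0.97 ± 0.26 and 0.80 ± 0.31 (limma adjusted p = 0.118 and 0.251), while a second ALDH1L1 probe set had -0.31 ± 0.27. The astrocyte list's summed intensity was 64120 to 97106 in magnocellular and 37317 to 100263 in parvocellular samples. The 2 genes of smallest p among the other markers were SYT1 (-0.14) and UCHL1 (-0.15) for neurons, CSF1R (-0.43) and TYROBP (-0.28) for microglia, and PECAM1 (-0.35) and FLT1 (0.43) for endothelium, and none passed. The part of these markers in the filament differences was not tested.

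**Figure D3:**
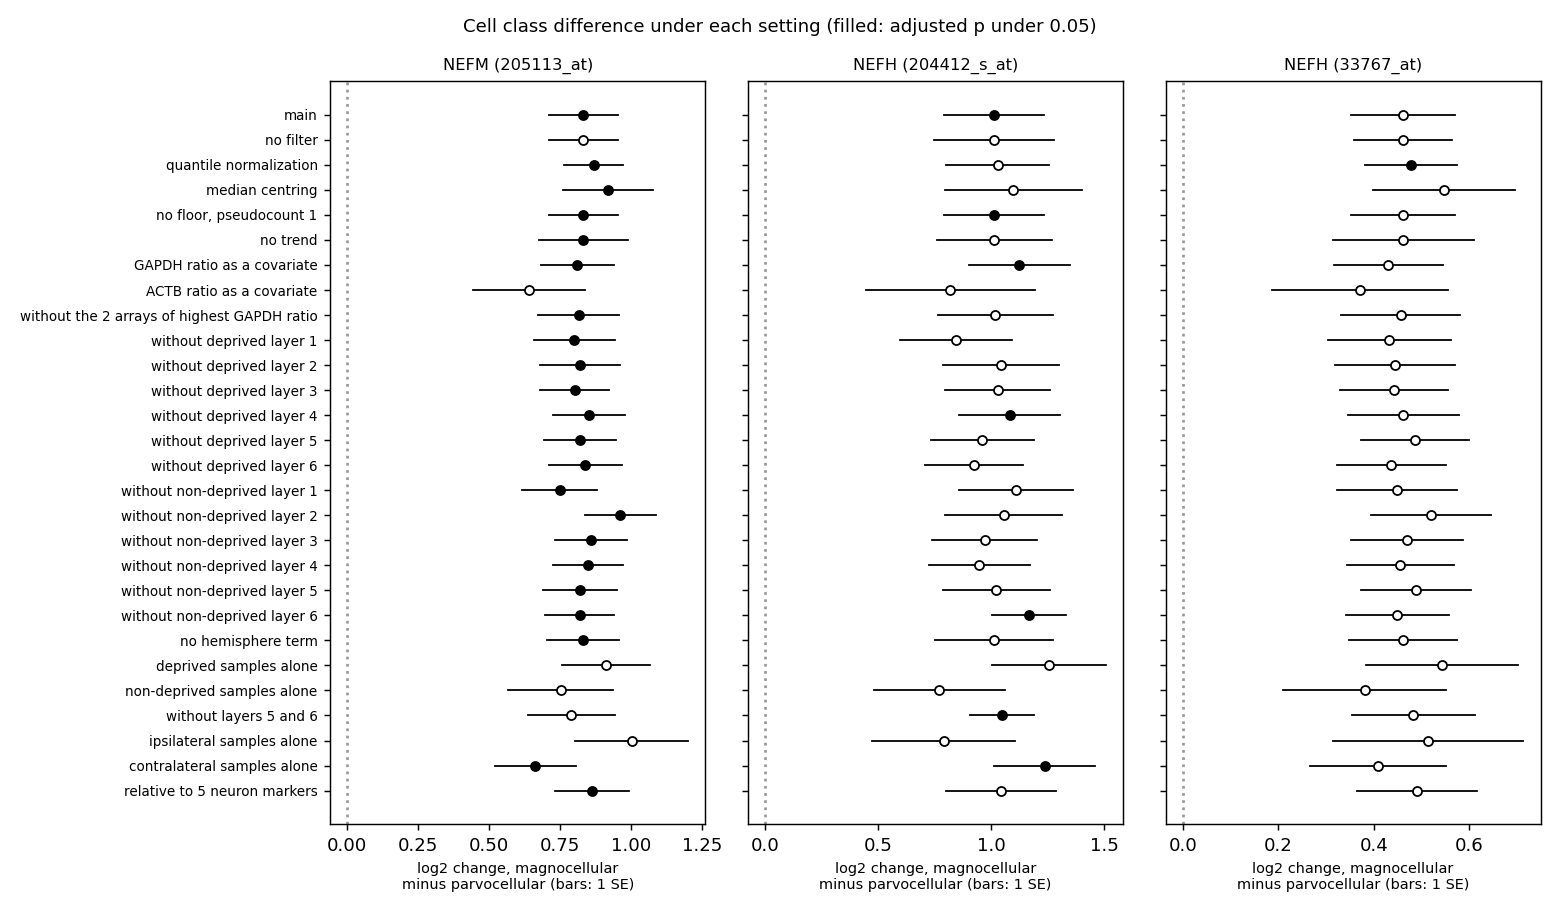
Log2 change, magnocellular minus parvocellular (horizontal axes, bars of 1 standard error), of NEFM and the 2 NEFH probe sets under the main fit and each alternative (rows); filled points passed adjusted p under 0.05. NEFM stayed between 0.64 and 1.00 and lost its call with the ACTB ratio as a covariate, without the filter, within either deprivation group, in ipsilateral samples and without layers 5 and 6.

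By layer, NEFM stood highest in layer 1 (mean of its 2 samples 97240) and then layer 2 (79480). Layers 4 (52850), 3 (51010), 6 (48410) and 5 (47810) followed. The ranges of layers 1 and 2 overlapped, as did those of any 2 of layers 3 to 6, so only the step between layers 2 and 4 exceeded the spread. NEFH 33767_at had layers 1 (79350) and 2 (74120) above layers 5 (62170), 3 (55410), 4 (55200) and 6 (52010), but here the ranges of layers 2 and 5 overlapped. INA showed no step, with layer means from 83010 in layer 3 to 89730 in layer 2. Within the parvocellular class, the dorsal layers 5 and 6 and the ventral layers 3 and 4 were compared in the same kind of fit. The 7 log2 changes lay between -0.08 and 0.19, and none passed (limma adjusted p = 1 for all). Unadjusted, 0 of the 7 had p under 0.05, beside 2.47% of all probe sets, of which 0% passed.

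Because the subunits assemble together, their ratios within an array were compared between the classes. Log2 ratios of each gene's brightest probe set were set against each other for all 10 pairs of genes, with exact permutation of the 12 samples. The log2 ratio of NEFM to INA was -0.03 ± 0.22 in magnocellular layers (SD, n = 4) and -0.76 ± 0.19 in parvocellular layers (n = 8), a difference of 0.73 (two-sided exact permutation p = 0.00404, adjusted p = 0.0162 over the 10 pairs). That p is the smallest these permutations can give. The ratio of NEFM to NEFH rose by 0.37 and that of NEFH to INA by 0.36 (exact permutation, adjusted p = 0.0162 for both). The ratio of NEFL to NEFM was -0.47 ± 0.14 against -0.04 ± 0.25, a difference of -0.43 with the same adjusted p by exact permutation. The ratio of NEFL to NEFH differed by only -0.06 (exact permutation, adjusted p = 0.675).

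Of the 10 pairs, 7 passed, among them 2 with the dim PRPH, and NEFM was a member of 4 of the 7. These are ratios of signals and not amounts of protein, and the part of compression of the highest signals in them was not tested. The ratio of NEFM to NEFH depended on the NEFH probe sets: with the mean over the probe sets of a gene it differed by 0.10 (exact permutation, adjusted p = 0.59) and 3 pairs passed, those of NEFM to INA, NEFM to PRPH and NEFH to PRPH. When class was permuted within each deprivation group, 5 pairs passed and the NEFM to INA, NEFM to NEFH and NEFL to NEFM ratios were among them (exact permutation, adjusted p = 0.0296 for each).

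**Figure D4:**
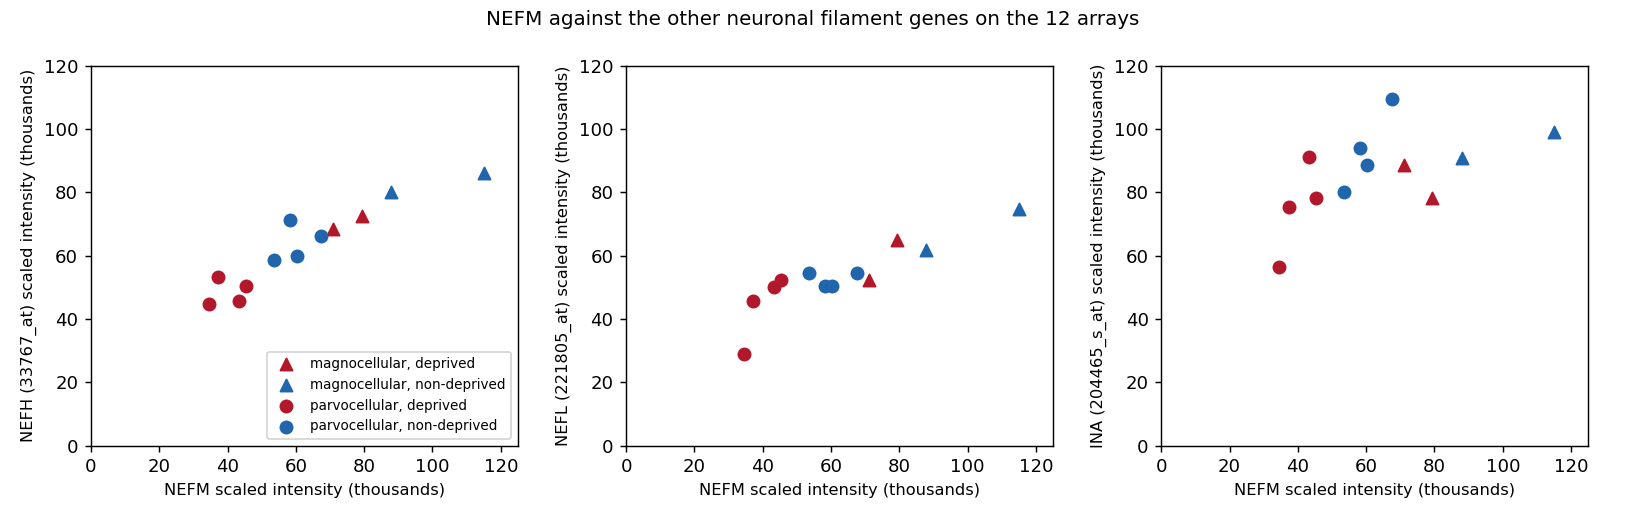
NEFM intensity (horizontal axes) against that of NEFH 33767_at, NEFL 221805_at and INA (vertical axes) on the 12 arrays, in scaled intensity on linear axes and starting at 0. Triangles are magnocellular and circles parvocellular samples, red deprived and blue non-deprived. NEFM and NEFH 33767_at order the samples alike (r = 0.94), while INA does not separate the classes.

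The second comparison asked whether the filament genes differed between deprived and non-deprived layers. NEFM was lower in the deprived sample of all 6 layers, by 0.54, 0.31, 0.97, 0.41, 0.65 and 0.30 on the log2 scale in layers 1 to 6. Within each cell class the deprived and non-deprived values listed above did not overlap. NEFM averaged 75200 ± 5903 in deprived and 101500 ± 19210 in non-deprived magnocellular samples (SD, n = 2 each), and 40140 ± 5098 in deprived and 59900 ± 5809 in non-deprived parvocellular samples (n = 4 each). The fitted log2 change was -0.53 ± 0.11, a 0.693-fold level with a 95% interval of -0.77 to -0.29. Over all probe sets it missed the threshold (limma adjusted p = 0.101, ranked 23 of 11105 by p-value, and 0.16 without the deprived layer 2 array).

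NEFH 33767_at was also lower in the deprived sample of all 6 layers, with log2 differences between -0.56 in layer 3 and -0.23 in layer 2. Parvocellular values were 44715, 50383, 53099 and 45560 in deprived samples of layers 3 to 6, against 66108, 60019, 71231 and 58461 in non-deprived ones, with no overlap. The magnocellular values given above did not overlap either. The fitted log2 change of -0.35 ± 0.10 did not pass (limma adjusted p = 0.197). Probe set 204412_s_at of the same gene had a larger and more variable change of -0.77 ± 0.21 (adjusted p = 0.167), lower in 4 layers and higher in the deprived layers 1 and 4. In both exceptions the deprived sample came from the contralateral side, as it did in layer 6, where the deprived value was lower. This probe set was brighter on that side (ipsilateral minus contralateral -0.56 ± 0.21, adjusted p = 0.164).

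INA was lower in 5 of 6 deprived layers, with 78343, 88774, 56550, 78250, 75351 and 91217 in deprived layers 1 to 6 against 98910, 90684, 109475, 88750, 93834 and 79988 in non-deprived ones. Layer 6 went the other way, and the groups overlapped. Its log2 change was -0.27 ± 0.12 (limma adjusted p = 0.373), and the widest gap was in layer 3 (-0.95).

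The NEFL probe sets did not move one way with deprivation. The brightest, 221805_at, changed by -0.26 ± 0.13 (limma adjusted p = 0.469), lower in 5 of 6 deprived layers, with its widest gap in layer 3 (29026 deprived, 54479 non-deprived). Probe set 221916_at changed by 0.20 ± 0.18, higher in 4 of 6 layers, and 221801_x_at by -0.03 ± 0.21. The PRPH values overlapped, at 284 to 1191 in deprived and 211 to 747 in non-deprived samples, and its change in the fit over all probe sets was -0.01 ± 0.41 (limma adjusted p = 1).

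Of the 7 tested probe sets, 0 passed for deprivation by limma, beside 0.063% of all probe sets. Unadjusted, 4 of the 7 had p under 0.05 and all 4 were lower, beside 6.07% of all probe sets that were lower at that level. The median over the 7 was -0.27, and 0.03 over all probe sets tested. Lower values in 6 of 6 layers were seen in 2 of the 7, NEFM and NEFH 33767_at, and in 2.42% of all probe sets. No overlap within either cell class, with deprived values below, was seen in the same 2 and in 0.702% of all.

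Markers of cell types were set beside these values. All 5 neuron markers had negative changes with deprivation (median -0.27), STMN2 (-0.35 ± 0.11) and UCHL1 (-0.30 ± 0.11) with an unadjusted p under 0.05 by limma, and none passed. The other tested probe sets of these genes had changes from -0.76 (THY1) to -0.08 (SYT1 and STMN2), and none passed. The markers' summed intensity was 254428 to 339634 in deprived and 312001 to 356898 in non-deprived samples, which overlapped. Of the relay markers, 4 of 5 were negative, CACNA1G, a T-type calcium channel, with -0.52 ± 0.19 and RORA with -0.29 ± 0.22, and none passed. All 5 oligodendrocyte, 4 tested astrocyte, 4 microglia and 4 endothelial markers had positive changes (medians 0.37, 0.30, 0.27 and 0.28), and none passed. Positive changes were seen in 53.7% of all probe sets tested. The 2 of smallest p in each list were CNP (0.67 ± 0.19) and MOG (0.64 ± 0.27) for oligodendrocytes, GFAP (0.62 ± 0.19) and SLC1A3 (0.44 ± 0.25) for astrocytes, CX3CR1 (0.47 ± 0.19) and CTSS (0.34 ± 0.23) for microglia, and CLDN5 (0.39 ± 0.24) and TEK (0.48 ± 0.37) for endothelium. The part of these markers in the filament differences was not tested. Relative to the 5 neuron markers on each array, NEFM changed by -0.30 ± 0.12 (limma adjusted p = 0.168), NEFH 33767_at by -0.12 ± 0.12, NEFH 204412_s_at by -0.54 ± 0.23, INA by -0.04 ± 0.11 and NEFL 221805_at by -0.03 ± 0.13. On that scale the median of all probe sets was 0.26. Of the same 10 log2 ratios between members, 0 passed between deprived and non-deprived samples, with adjusted p from 0.782 by exact permutation. That permutation did not hold cell class fixed. When deprivation was permuted within each cell class, 0 passed either. The smallest p-values there were 0.019 for NEFM to INA (difference -0.26) and 0.029 for NEFL to NEFM (0.27). Both had adjusted p = 0.143 by exact permutation.

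Whether the deprivation difference was unequal between the cell classes was tested with an interaction term. The difference in magnocellular minus that in parvocellular layers was 0.16 ± 0.25 for NEFM and 0.16 ± 0.22 for NEFH 33767_at (limma adjusted p = 0.882 and 0.86), and 0 of the 7 probe sets had an unadjusted p under 0.05, beside 8.73% of all. Between the hemispheres, the ipsilateral minus contralateral deprivation difference was -0.29 ± 0.22 for NEFM and -0.52 ± 0.24 for NEFL 221805_at (adjusted p = 0.869 and 0.747). NEFL was the only 1 of the 7 with an unadjusted p under 0.05 there, beside 6.57% of all. This contrast is the same as the eye that feeds a layer, and the design cannot tell them apart. Over all probe sets 0% passed in either test. Hemisphere itself gave changes of -0.56 to 0.14 over the 7 probe sets, of which 0 passed beside 0.108% of all (0.0991% lower).

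The arrays ordered NEFM and NEFH 33767_at alike, while NEFH 204412_s_at had r = 0.775 with NEFM. Among probe sets that named 1 other gene, the 3 of highest Pearson correlation with NEFM over the 12 arrays were those of NEFH (33767_at, r = 0.94), ATP5MC1 (0.933), a subunit of mitochondrial ATP synthase, and NRIP3 (0.93). For NEFH 33767_at they were ATP5MC1 (0.967), NEFM (0.94) and REXO2 (0.931), a mitochondrial exonuclease. For INA they were KCTD17 (0.889), STMN2 (0.876), a tubulin-binding protein of growing axons, and WDTC1 (0.863). For NEFL 221805_at they were C1orf216, SLC9D1 and MED8 (0.888 to 0.892). These are the highest of 9840 to 9842 probe sets each, over samples that share layers, arrays and scaling, and are given as a description. After removing the class means, NEFM and NEFH 33767_at still had r = 0.863. NEFM and NEFL lie next to each other in the rhesus reference annotation, with 0 protein-coding genes between them. With class means left in, NEFM had r = 0.842 with NEFL 221805_at, 0.281 with 221916_at and 0.194 with 221801_x_at.

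Of 10 other intermediate filament genes, such as those of astrocytes and the nucleus, 4 were above the filter. SYNM, which encodes synemin, a filament protein of astrocytes and muscle, had 3821, 3193, 3611, 2646, 2898 and 2958 in deprived layers 1 to 6, against 2222, 2631, 1802, 2114, 2251 and 2400 in non-deprived ones. The deprived samples all lay above the non-deprived ones, as they did for 0.333% of all probe sets. GFAP, the filament of astrocytes, had 3965, 3038, 6229, 2630, 4262 and 3387 in deprived layers 1 to 6, against 2335, 2445, 2459, 2490, 2078 and 2974 in non-deprived ones. It was higher in all 6 layers, as were 2.74% of all probe sets, with the groups overlapping. The log2 changes were 0.51 ± 0.15 for SYNM and 0.62 ± 0.19 for GFAP and did not pass (limma adjusted p = 0.207 and 0.203), while VIM, vimentin, had -0.01 ± 0.21 and LMNA, a lamin of the nucleus, -0.26 ± 0.22. For cell class, 0 of the 4 passed (SYNM 0.20 ± 0.16, LMNA -0.26 ± 0.24).

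Enzymes that phosphorylate or dephosphorylate the filament tails were tested as a list of 20 genes, 16 of them above the filter. For deprivation 8 were higher and 8 lower, with a median of 0.01, and none passed. Unadjusted, 2 had p under 0.05 by limma as higher and 2 as lower, the lower ones beside 6.07% of all probe sets. CDK5, the kinase of the tail repeats, had a log2 change of -0.54 ± 0.19, and PRKCA, a protein kinase C, had 0.41 ± 0.16 (limma adjusted p = 0.272 and 0.33). For cell class 0 passed either, with PPP2R2B, a regulatory subunit of the phosphatase PP2A, at 0.46 ± 0.16 (its other probe set 0.01) and CAMK2A at -0.68 ± 0.29.

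Genes that move, cross-link or degrade filaments were 15, of which 13 were tested. For deprivation 11 of the 13 were lower, with a median of -0.10 beside 0.03 over all probe sets, and none passed. Of all probe sets tested, 53.7% were higher. The smallest p-values were those of STUB1, a ubiquitin ligase (-0.46 ± 0.18), and MYO5A, a myosin motor that binds neurofilaments (-0.43 ± 0.17), and KIF5A, the motor of slow filament transport, had -0.26 ± 0.18. For cell class CAPN2, a calcium-dependent protease that cuts filaments, had 0.79 ± 0.23 (limma adjusted p = 0.138) and DST, a linker of filaments to microtubules, 0.35 ± 0.15, and 0 of the 13 passed.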

How the data were processed

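Intensities on a linear scale for 22283 probe sets in 12 samples were used as deposited by the authors, since their trimmed means were already alike. The software that made them is not given in the sources used here. A floor was set at the 20th percentile of all values (110.8) before log2 was taken. Probe sets at or above the median mean log2 value (8.92), without the 68 controls, were tested, which left 11105. Tests were lmFit and eBayes with a trend (limma 3.58.1 in R 4.3.3). They were two-sided, and p-values were adjusted over all 11105 by Benjamini-Hochberg. Deprivation, cell class and hemisphere were additive terms, with 8 residual degrees of freedom, and interactions were added singly. PRPH was taken from a fit without the filter. On 10 simulated sets of 11105 probe sets the fit called 11% of log2 changes of 0.5 and 61% of changes of 1 for deprivation, and 7.4% and 56.6% for cell class. The number of arrays limits the precision.

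Members, gene lists and tests were chosen with earlier results of these data known. Named were all member probe sets, in each list the genes past the threshold and the 2 of smallest p for deprivation or cell class at a gene's brightest probe set, and the 3 genes most correlated with each member; other genes, among them KIF5A, VIM, THY1 and PRKCA, were added after their values were seen. A gene that this rule would name is not reported here. Alternatives are given in the closing section. All 5 member genes are named in the rhesus gene tables. No genome build was named and no sequence table was at hand, so no coordinates or sequences are given.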

Additional observations from a re-analysis of the deposited data

Results flagged for a closer look

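In 32 groups of samples (8 probe sets, by deprivation and by cell class) the gap of the highest or lowest sample to its neighbour was set against the group's range, and 3 samples stood apart. Chance alone does this in about 1 group in 20. For NEFH 204412_s_at the deprived layer 1, a magnocellular sample, had 65573, above the next deprived sample at 32292. For NEFL 221805_at the deprived layer 3 had 29026.5, below the next parvocellular sample at 45802. For NEFL 221801_x_at the non-deprived layer 6 had 2032, above the next parvocellular sample at 1299.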

How the results depend on the processing

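For deprivation 0 member probe sets passed in the main fit and in all 27 alternatives, including the layer number as a replicate block (0 passed; NEFM -0.53 ± 0.12, adjusted p = 0.15). With deprivation group means removed, same-layer samples had correlations of -0.25 to -0.00, and 0 of 12 samples matched best with their own layer. The 2 samples of a layer always came from opposite hemispheres, and hemisphere was not removed. This check therefore cannot show whether samples of a layer deviate together. NEFM stayed between -0.67 and -0.30 for deprivation (adjusted p from 0.058). For cell class the count of 2 became 0 without the filter, with the ACTB ratio as a covariate, within either deprivation group and in ipsilateral samples. With quantile normalization it stayed at 2, but with NEFH 33767_at in place of 204412_s_at. It became 1 with median centring, without a trend, without the hemisphere term, without the 2 arrays of highest GAPDH ratio, without layers 5 and 6 and relative to neuron markers, and was 1 to 2 without single arrays. NEFM passed in all 12 fits without a single array (0.75 to 0.96). Member ratios by class that passed numbered 5 to 8 without single arrays and 3 with gene means. For hemisphere the count was 0 to 1 without single arrays (1, NEFH 204412_s_at, without the non-deprived layer 6). NEFL 221801_x_at changed sign for deprivation with the GAPDH ratio (0.030), without the 2 arrays of highest ratio (0.079), in contralateral samples (0.22) and relative to neuron markers (0.20), and ranged from -0.17 to 0.14 without single arrays. For class it ranged from -0.040 to 0.34 and was -0.13 in ipsilateral samples. NEFL 221805_at was 0.0022 for deprivation in contralateral samples, and INA for class was -0.034 with the ACTB ratio and -0.13 in contralateral samples. These signs all belong to changes that passed in no fit, and the causes were not tested. Over all probe sets, counts ranged from 0 to 103 for deprivation (7 in the main fit), from 0 to 188 for class (80) and from 0 to 851 for hemisphere (12). Median centring moved the median of all deprivation changes from 0.03 to -0.11 and NEFM from -0.53 to -0.66. Within hemispheres and relative to neuron markers are settings chosen after seeing the data, as is permutation within the other factor.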

Other observations

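Among the genes that move, cross-link or degrade filaments, KLC1, a light chain of the kinesin motor that carries axonal cargo, differed between the hemispheres. Its brightest probe set had 3463 to 7651 in the 6 ipsilateral samples and 7948 to 12534 in the 6 contralateral samples, with no overlap, as for 0.423% of all probe sets (log2 change -1.0 ± 0.19, limma adjusted p = 0.0494). A second probe set fell alike (-0.99 ± 0.18, adjusted p = 0.0493), while another had 0.49 ± 0.39. The call of the brightest probe set rests on the settings: it passed in 3 of 20 alternatives, with adjusted p up to 0.873 with the GAPDH ratio as a covariate and changes from -1.32 to -0.83. It was lost in 11 of the 12 fits without a single array. Over all probe sets 0.0991% were lower ipsilaterally at this threshold.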
